A study of Mus musculus with 2 samples.

Results

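The genes of the proteasome and of its assembly were taken by symbol from a RefSeq gene table: every gene whose symbol begins with Psma, Psmb, Psmc, Psmd, Psme, Psmf or Psmg and a digit, and Pomp. The table held 58 such genes, of which 51 had a probe on the array, out of 20659 genes with a named probe. Both arrays measured 49 of the 51, that is, both flagged a probe of the gene as well above background, as for 10223 genes in all. The rule also takes Psmc3ip and Psme3ip1, which are named for binding a proteasome protein and are no subunits, and these are given apart. The 7 genes with no named probe were 6 pseudogenes and Psme2b, a copy of Psme2.

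The cells were blood cells from the liver of mouse fetuses at E13.5 that carried SoNar, a protein sensor whose fluorescence follows the NADH/NAD+ balance of the cell, and they were sorted on the sensor's F405/F488 ratio, its fluorescence under violet over that under blue excitation. The SoNar-high population (strain labelled C57BL/6) and the SoNar-low population (strain labelled C57BL) gave total RNA for 1 single-colour Agilent array each, and the comparison asks which genes differ between cells of high and of low sensor ratio. There were no replicates, so no test was possible and no value carries an error between animals or sorts. The labels used here do not give the promoter of the sensor, the gates or the number of animals. Both arrays came from 1 slide scan, no spot was saturated, and the share of spots well above background was 49.4% for SoNar-high and 42.4% for SoNar-low cells.

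Proteasomes degrade proteins that carry ubiquitin chains. The catalytic core is a barrel of alpha rings, which gate the channel, around beta rings, of which some subunits carry the proteolytic sites. A regulatory cap of ATPases and other subunits binds ubiquitin, removes it and threads the protein into the core, and dedicated chaperones put the core and the cap together. Cells of the immune system and cells exposed to interferon exchange the catalytic beta subunits for immunoproteasome subunits. Red cell precursors lose most of their proteins and organelles as they mature, and the ubiquitin-proteasome system takes part in that remodelling.

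Signals are given as the processed signal divided by the 75th percentile of the non-control spots of the same array (186.5 units for SoNar-high and 222.2 for SoNar-low cells), here called the scaled signal. A difference is the log2 scaled signal of SoNar-high cells less that of SoNar-low cells, so that a negative value is lower in SoNar-high cells, and the error after ± is the scanner software's own error of 1 probe's difference. It covers neither animals, nor sorts, nor labelling. Signals of different probes cannot be set against each other, so each value is compared only between the arrays. Sums of scaled signals over a gene list are also compared only between the arrays, and the brightest probes weigh most in them. Where a gene had more than 1 measured probe, the brightest stands for it and the others are named. A gene was counted as higher or lower from 2-fold.

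The measured proteasome genes were mostly lower in SoNar-high cells, by small amounts. Of 49 genes, 40 had a difference below 0, or 81.6%, beside 55.8% of all measured genes. Their median was -0.32, with an interquartile range of -0.70 to -0.07, and the median of all measured genes was -0.08. At least 2-fold lower were 4 of 49, or 8.16%, beside 4.44% of all measured genes, and at least 2-fold higher was none, beside 5.28%. The same shares of all measured genes apply to the counts of each role and list below. At 1.5-fold the counts were 18 lower (background 17.7%) and 1 higher (background 13.8%). The 4 genes past 2-fold were Psmg4, Psma7, Psma6 and Psmb7, an assembly chaperone and 3 subunits of the core. By more than 2 scanner errors 23 genes were lower, beside 25.7% of all measured genes, and 1 was higher, beside 17.6%. In RNA of sorted populations, fewer cells of a type and less RNA per cell cannot be told apart.

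**Figure D1:**
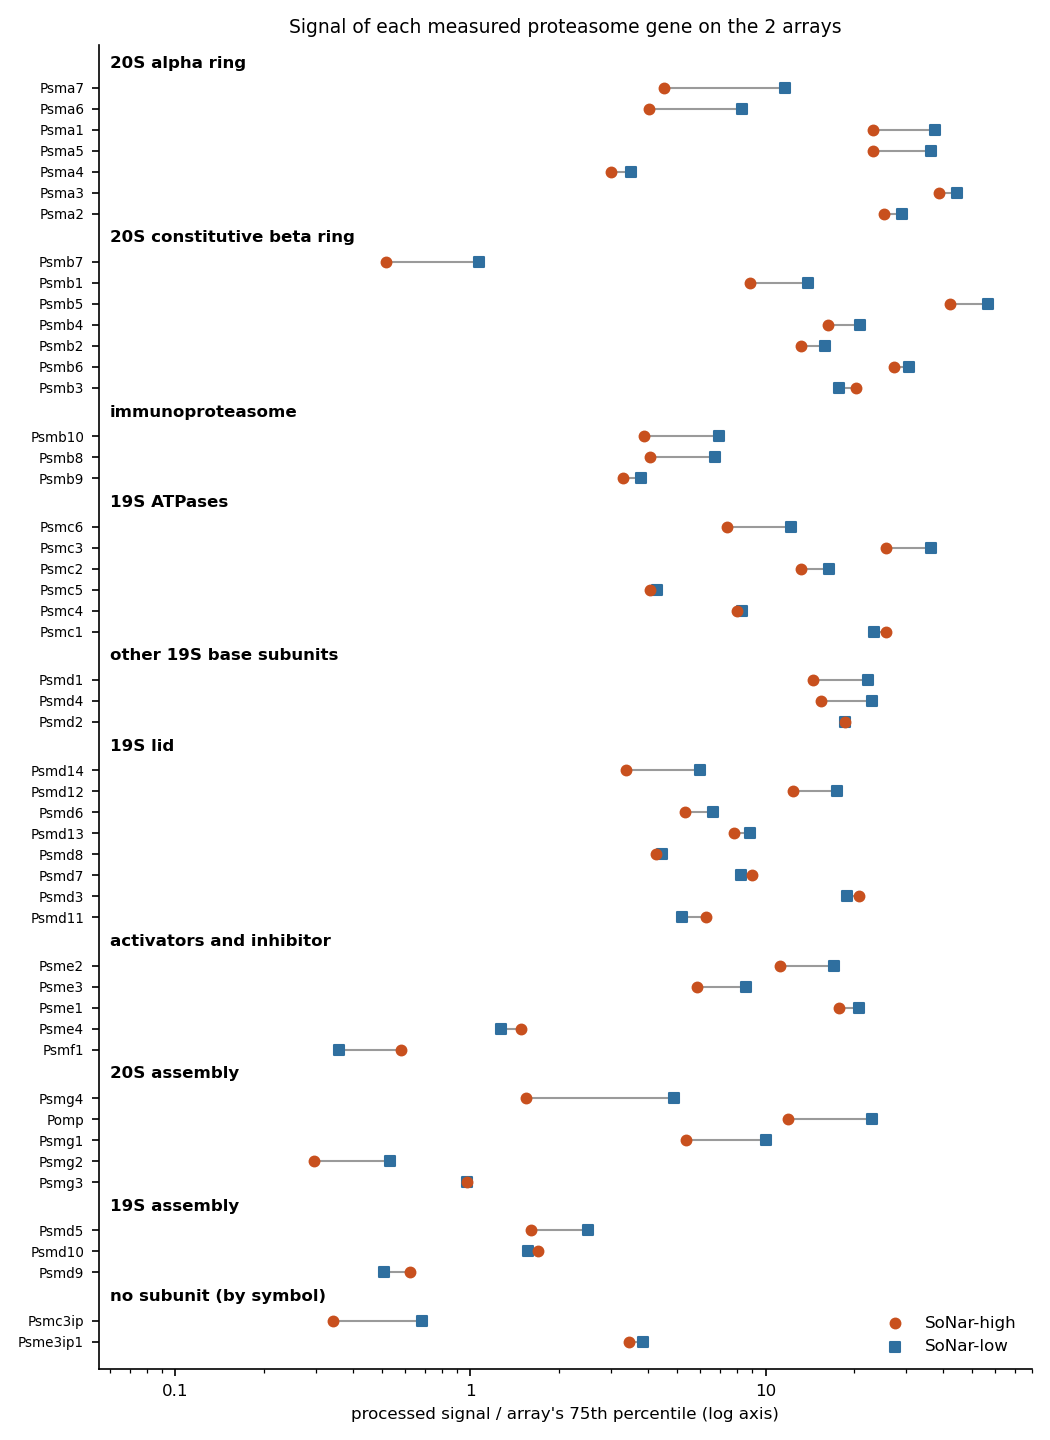
Scaled signal (processed signal over the array's 75th percentile, log axis) of each of the 49 measured genes on the SoNar-high array (circles) and the SoNar-low array (squares), ordered by role and by difference. The SoNar-high circle lies left of the SoNar-low square in 40 genes and farthest from it in Psmg4 (1.54 against 4.90); signals of different genes come from different probes and cannot be compared.

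Upstream sequences are shown for 6 genes: Psmg4 and Psma7, which were at least 2-fold lower under the main setting and all 9 alternatives that change values; Pomp, whose difference was next in size among the core assembly factors; Psmb5 and Psmb8, the constitutive and immune forms of 1 catalytic site; and Psmf1, the member with the largest positive difference. Each line holds the 250 bases before the annotated start from RefSeq (build GRCm38.p6), 5′ to 3′ on the strand of the gene, and capitals mark matches on either strand to 1 of the 4 motifs described in the next paragraph. The stretches are chr13:34162714-34162963, plus strand, for Psmg4; chr2:180042465-180042714, minus strand, for Psma7; chr5:147860378-147860627, plus strand, for Pomp; chr14:54617996-54618245, minus strand, for Psmb5; chr17:34197945-34198194, plus strand, for Psmb8; and chr2:151741311-151741560, minus strand, for Psmf1.
Psmg4: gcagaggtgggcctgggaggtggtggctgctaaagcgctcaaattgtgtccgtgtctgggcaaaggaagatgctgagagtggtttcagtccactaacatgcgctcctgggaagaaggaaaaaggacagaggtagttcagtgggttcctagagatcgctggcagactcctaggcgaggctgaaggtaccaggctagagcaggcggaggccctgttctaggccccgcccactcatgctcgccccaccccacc
Psma7: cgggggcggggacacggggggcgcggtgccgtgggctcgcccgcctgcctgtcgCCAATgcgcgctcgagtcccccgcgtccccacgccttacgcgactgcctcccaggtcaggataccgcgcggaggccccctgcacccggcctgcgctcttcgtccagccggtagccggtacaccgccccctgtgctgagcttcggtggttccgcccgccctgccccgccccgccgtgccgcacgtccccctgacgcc
Pomp: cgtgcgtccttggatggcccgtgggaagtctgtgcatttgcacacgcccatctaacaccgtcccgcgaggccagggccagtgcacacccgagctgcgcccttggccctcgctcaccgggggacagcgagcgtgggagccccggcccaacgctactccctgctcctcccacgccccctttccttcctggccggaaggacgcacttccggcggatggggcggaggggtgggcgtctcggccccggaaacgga
Psmb5: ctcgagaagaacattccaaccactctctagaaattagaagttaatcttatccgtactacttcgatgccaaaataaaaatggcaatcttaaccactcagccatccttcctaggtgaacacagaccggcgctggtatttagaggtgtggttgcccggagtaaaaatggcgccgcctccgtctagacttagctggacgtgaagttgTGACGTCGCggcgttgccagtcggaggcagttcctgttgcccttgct
Psmb8: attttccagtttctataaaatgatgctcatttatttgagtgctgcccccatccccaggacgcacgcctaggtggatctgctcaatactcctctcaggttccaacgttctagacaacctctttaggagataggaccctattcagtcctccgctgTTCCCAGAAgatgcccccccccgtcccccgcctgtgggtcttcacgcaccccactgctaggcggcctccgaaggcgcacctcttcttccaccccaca
Psmf1: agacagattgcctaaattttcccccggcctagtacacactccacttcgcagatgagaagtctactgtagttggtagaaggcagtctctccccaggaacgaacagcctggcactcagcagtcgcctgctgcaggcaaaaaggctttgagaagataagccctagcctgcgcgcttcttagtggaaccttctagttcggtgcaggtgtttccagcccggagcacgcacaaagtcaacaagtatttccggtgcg

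The promoter table held 42 of the 49 measured members, with 46 windows, among 32851 windows of all genes. The core of the antioxidant response element, to which the proteasome gene activator Nfe2l1 and its relative Nfe2l2 bind, was searched as TGACNNNGC on both strands. It occurred upstream of 5 of the 42 members, or 11.9%, beside 11.5% of all genes in the table: Psmb5, Psmb6, Psmc6, Psmd12 and Psmd9. Their differences ran between -0.72 (Psmc6) and 0.29 (Psmd9). CCAAT, the box bound by NF-Y, occurred upstream of 15 members, or 35.7%, beside 37.5% of all genes, and the median difference was -0.32 with it and -0.31 without it.

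Of the motifs of interferon signalling, TTCNNNGAA (gamma-activated site, which reads alike on both strands) occurred upstream of Psmb8 and Psmg1 and of 8.13% of all genes. The core of the interferon-stimulated response element (GAAA, 2 bases of any kind, GAAA, on both strands) occurred upstream of Psmb3, Psmd4 and Psmd9 and of 3.46% of all genes. In the 6 sequences above, capitals fall on a CCAAT box in Psma7, on the antioxidant response element core in Psmb5 and on the gamma-activated site in Psmb8, and the windows of Psmg4, Pomp and Psmf1 held none of the 4 motifs. Within these letters, Psmg4, Psma7 and Pomp shared none of the 4. A match is a description of the letters and not a binding site.

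The chaperones that assemble the core had the most negative median of all roles, -0.90, with all 5 measured genes below 0. Psmg4, a small subunit of the chaperone pair that arranges the alpha ring, had a scaled signal of 1.54 in SoNar-high cells and 4.90 in SoNar-low cells. Its difference of -1.67 ± 0.21 was 3.18-fold, the largest of the 49 genes in either direction. It alone of the 49 was at least 3-fold lower, or 2.04%, beside 0.47% of all measured genes. Pomp, the maturation factor on which beta subunits are added to the alpha ring, had 11.9 in SoNar-high and 22.9 in SoNar-low cells, a difference of -0.95 ± 0.20, while its dimmer probe gave -0.37. Psmg1 and Psmg2 form the chaperone dimer that starts the alpha ring.

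Psmg1 had a scaled signal of 5.38 in SoNar-high and 10.02 in SoNar-low cells, a difference of -0.90 ± 0.20, and its other probe gave -1.19. Psmg2 had 0.296 in SoNar-high and 0.532 in SoNar-low cells, near the lower end of what the arrays measured, with -0.85 ± 0.28. Both partners of the Psmg1 and Psmg2 dimer thus lay lower in SoNar-high cells, by similar amounts under the main setting but not under every other setting. In the authors' deposited value table Psmg1 had -0.71 and Psmg2 -1.03, and with normexp background correction Psmg1 had -0.89 and Psmg2 -0.46. Psmg3, the partner of Psmg4, was level, with 0.971 in SoNar-high and 0.974 in SoNar-low cells and a difference of -0.01 ± 0.22. The difference between Psmg4 and its partner Psmg3 was larger than the scanner errors of both, and each rested on 1 probe.

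The 3 chaperones of the cap lay on both sides of 0. Psmd5, which holds an ATPase pair of the cap base during assembly, had 1.599 in SoNar-high and 2.50 in SoNar-low cells, a difference of -0.64 ± 0.21. Psmd10 (gankyrin) had 1.70 in SoNar-high and 1.57 in SoNar-low cells, a difference of 0.11 ± 0.21, with 0.48 from its other probe. Psmd9 had 0.626 in SoNar-high and 0.510 in SoNar-low cells, a difference of 0.29 ± 0.26, and 0.31 from its other probe. Their median of 0.11 was the only positive one among the roles. The value of Psmd10 was smaller than its scanner error and that of Psmd9 was only slightly larger.

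**Figure D2:**
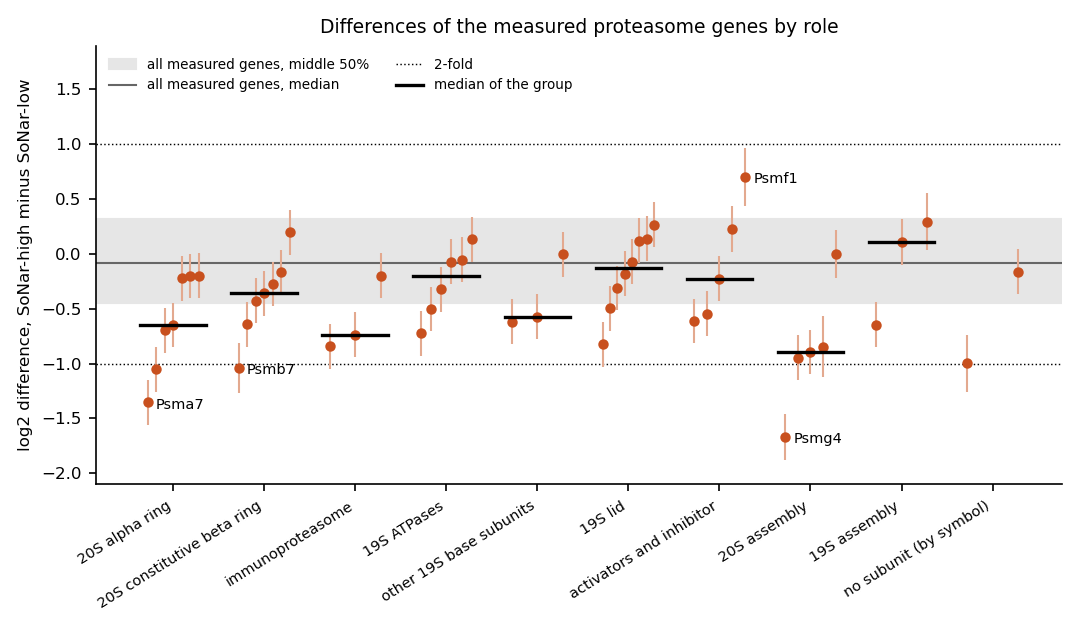
Log2 difference (SoNar-high minus SoNar-low) of each measured gene by role, with the scanner error as vertical bars and the median of each role as a black line. The grey band and line give the interquartile range and the median (-0.08) of all measured genes; the 20S assembly group lies lowest (median -0.90), and Psmg4 (-1.67), Psma7 (-1.36), Psma6 and Psmb7 pass 2-fold.

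All 7 measured subunits of the alpha ring were below 0, with a median of -0.65 and 2 of them at least 2-fold lower. Psma7 had a scaled signal of 4.54 in SoNar-high and 11.6 in SoNar-low cells, a difference of -1.36 ± 0.20, or 2.56-fold. Psma6 had 4.02 in SoNar-high and 8.35 in SoNar-low cells, a difference of -1.05 ± 0.20. Psma1 (23.2 in SoNar-high and 37.7 in SoNar-low cells) and Psma5 (23.2 in SoNar-high and 36.4 in SoNar-low cells) differed by -0.70 and -0.65. The subunits of the ring thus differed among themselves, with Psma2, Psma3 and Psma4 between -0.22 and -0.20.

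Psma3, with 38.8 in SoNar-high and 44.6 in SoNar-low cells, differed by -0.20 ± 0.20, and Psma2 by -0.20 ± 0.20. Psma4 is less certain, because its probes gave -0.22 and -1.02. The second of these probes had a scaled signal of 1.94 in SoNar-high and 3.94 in SoNar-low cells, and would place Psma4 with Psma6 and Psma7. Psma8, the alpha subunit of male germ cells, was not above background on either array (6.71 units of processed signal in SoNar-high and 8.17 in SoNar-low cells).

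In the constitutive beta ring 6 of 7 genes were below 0, with a median of -0.36. Psmb7, which carries the trypsin-like site, had 0.517 in SoNar-high and 1.065 in SoNar-low cells, a difference of -1.04 ± 0.23 from a dim probe. Psmb1 had 8.88 in SoNar-high and 13.9 in SoNar-low cells, a difference of -0.64 ± 0.20. Psmb5, the subunit of the chymotrypsin-like site, had 42.3 in SoNar-high and 56.8 in SoNar-low cells, a difference of -0.43 ± 0.20, and -0.26 from its other probe. The 3 constitutive catalytic genes therefore spread widely, with Psmb6, of the caspase-like site, at -0.17 ± 0.20 (27.2 in SoNar-high and 30.6 in SoNar-low cells).

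Psmb4 (-0.36) and Psmb2 (-0.28) lay between Psmb5 and Psmb6. Psmb3 was the only core gene above 0, with a scaled signal of 20.3 in SoNar-high and 17.7 in SoNar-low cells and a difference of 0.20 ± 0.20. The gene table lists pseudogenes of Psma5, Psmb5, Psmb6 and Psmb7 with no probe of their own, and whether probes of these 4 genes also bind their transcripts was not tested. Over the alpha and constitutive beta rings together, 13 of 14 genes were below 0 and the median was -0.39.

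The immunoproteasome subunits had a median of -0.74, with Psmb10 and Psmb8 well below 0 and Psmb9 within its scanner error of 0. Psmb10 had 3.88 in SoNar-high and 6.95 in SoNar-low cells, a difference of -0.84 ± 0.20. Psmb8 had 4.05 in SoNar-high and 6.75 in SoNar-low cells, a difference of -0.74 ± 0.20. Psmb9 had 3.30 in SoNar-high and 3.79 in SoNar-low cells, a difference of -0.20 ± 0.21. Each replaces 1 constitutive subunit, and the log2 difference of Psmb8 was more negative than that of Psmb5 (-0.31 between them), that of Psmb9 near that of Psmb6 (-0.03), and that of Psmb10 less negative than that of Psmb7 (0.20).

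Psmb9 and Psmb8 lie in the MHC region of chromosome 17 with Tap1, a peptide transporter gene, between them, and the promoter window of Psmb9 faces that of Tap1. Tap1 had a scaled signal of 0.385 in SoNar-high and 0.401 in SoNar-low cells, a difference of -0.06 ± 0.29. Psmb11, the beta subunit of thymic epithelium, was not above background on either array (19.3 units of processed signal in SoNar-high and 15.1 in SoNar-low cells).

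Markers of immune cells differed in both directions, and most measured markers of lymphoid cells had lower signals in SoNar-high cells. Of 12 natural killer and T cell markers, 7 were measured and 5 were past 2-fold lower; their median was -2.26, with a summed scaled signal of 10.98 in SoNar-high and 35.5 in SoNar-low cells. The other 2 measured markers of that list were above 0, Cd3e at 0.87 ± 0.27 and Nkg7 at 0.22 ± 0.20. Of 10 B lymphoid markers, 9 were measured and 6 were past 2-fold lower; their median was -1.53, with sums of 27.1 in SoNar-high and 77.5 in SoNar-low cells. Cd3g, Ifng, Il2rb and the B lymphoid gene Rag2 were above background in SoNar-low cells alone, and Cd3d and Prf1 in SoNar-high cells alone. Macrophage markers were higher in SoNar-high cells, with 9 of 10 measured genes (15 listed) at least 2-fold apart and a median of 2.88. Their sums were 118.5 in SoNar-high and 41.0 in SoNar-low cells. The other measured gene, Csf1r, had the largest signal of its list on both arrays and a difference of 0.18 ± 0.20. It gave 32.1 of the SoNar-high sum and 28.4 of the SoNar-low sum. Axl and Timd4 were above background in SoNar-high cells alone and Cd163, Cd68 and Mertk on neither array. The part of these cells in the immunoproteasome values was not tested.

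Interferon and peptide loading genes lay on both sides of 0. Of 12 listed genes 10 were measured, with a median of -0.10. At least 2-fold lower were 2, beside 4.44% of all measured genes, and none was higher, beside 5.28%. Irf1, an interferon-induced transcription factor that acts on immunoproteasome genes, had 8.002 in SoNar-high and 16.4 in SoNar-low cells, a difference of -1.03 ± 0.20. Erap1, which trims peptides in the endoplasmic reticulum, had -1.14 ± 0.31 from a dim probe. H2-K1 and H2-D1, class I heavy chains with close relatives that probes can share, had -0.65 and 0.62, and Nlrc5 was not above background on either array.

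The 17 genes of the regulatory cap had a median of -0.18, beside -0.39 for the core and -0.08 for all measured genes. Of these 17, 13 were below 0, beside 55.8% of all measured genes, and none passed 2-fold. Among the 6 ATPases, Psmc6 had 7.42 in SoNar-high and 12.2 in SoNar-low cells, a difference of -0.72 ± 0.20. Psmc3 is uncertain, since its probes gave -0.50 (25.7 in SoNar-high and 36.4 in SoNar-low cells) and 0.29 (8.53 in SoNar-high and 6.98 in SoNar-low cells), of opposite sign. Psmc2 had -0.32 and -0.41 from its probes, Psmc5 and Psmc4 were nearly level at -0.07 and -0.05, and Psmc1 had 0.13 from its brighter and -0.09 from its dimmer probe.

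The other subunits of the cap base were split. Psmd1, the large scaffold, had 14.5 in SoNar-high and 22.3 in SoNar-low cells, a difference of -0.62 ± 0.20. Psmd4, a ubiquitin receptor, had 15.4 in SoNar-high and 22.9 in SoNar-low cells, a difference of -0.57 ± 0.20. Psmd2, the other large scaffold, was level with 18.6 on both arrays and a difference of -0.0034 ± 0.20.

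The lid had a median of -0.13. Of its 8 genes 5 were below 0, beside 55.8% of all measured genes. It holds the enzyme that cuts ubiquitin off the substrate. That enzyme, Psmd14, had 3.38 in SoNar-high and 5.98 in SoNar-low cells, a difference of -0.82 ± 0.20, the most negative of the cap. Psmd12 had 12.4 in SoNar-high and 17.5 in SoNar-low cells, a difference of -0.50 ± 0.20, with -0.46 from its other probe. Psmd6, Psmd13 and Psmd8 lay between -0.31 and -0.07. Psmd11 (6.28 in SoNar-high and 5.22 in SoNar-low cells, 0.27 ± 0.20), Psmd3 (20.8 in SoNar-high and 18.9 in SoNar-low cells, 0.14) and Psmd7 (8.996 in SoNar-high and 8.28 in SoNar-low cells, 0.12) lay above 0, so the lid held members on both sides of the median of all genes.

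Of the activators and the inhibitor, 3 lay below 0, beside 55.8% of all measured genes, and 2 above. Psmf1, a regulator first described as a proteasome inhibitor, was the only gene at least 1.5-fold higher: its scaled signal was 0.584 in SoNar-high and 0.359 in SoNar-low cells, a difference of 0.70 ± 0.27 from a dim probe. Psme1 and Psme2, the subunits of the interferon-induced activator ring, had -0.23 and -0.61 (-0.29 from a further probe of Psme2). Psme1 was printed 10 times, and the log2 SD of its spots was 0.061 for SoNar-high and 0.12 for SoNar-low cells, around scaled signals of 17.7 in SoNar-high and 20.7 in SoNar-low cells. These neighbours on chromosome 14, with Emc9 between them, lay close to each other by the dimmer probe of Psme2 and further apart by the brighter. Psme2b, the copy of Psme2, had no named probe, and whether probes of Psme2 also bind its transcripts was not tested.

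Psme3, the nuclear activator, had 5.86 in SoNar-high and 8.56 in SoNar-low cells, a difference of -0.55 ± 0.20. Psme4, the large activator that works without ubiquitin, had 1.49 in SoNar-high and 1.27 in SoNar-low cells, a difference of 0.23 ± 0.21, and its second probe was not above background. Of the 2 genes taken by symbol only, Psmc3ip, a meiotic recombination factor, had 0.342 in SoNar-high and 0.682 in SoNar-low cells, a difference of -0.996 ± 0.26 that falls just short of 2-fold. Psme3ip1 had -0.16. Without these 2 genes the median was also -0.32.

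Of the genes that work beside the proteasome, 19 of 20 listed were measured and none passed 2-fold. Their median was -0.28, with 12 below 0, beside 55.8% of all measured genes. The most negative were Ube3c, a ligase bound to the proteasome (0.832 in SoNar-high and 1.64 in SoNar-low cells, -0.98 ± 0.22), and the shuttle receptor Rad23b (-0.80 ± 0.21). Adrm1, a ubiquitin receptor of the cap, had the most positive value, 0.55 ± 0.26, from a dim probe. Sem1, a small lid subunit, had 35.2 in SoNar-high and 38.1 in SoNar-low cells and a difference of -0.11, and the deubiquitinase genes Uchl5 and Usp14 had -0.62 and -0.28.

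None of the 6 genes of ubiquitin and its activation passed 2-fold. Ubb, which encodes a chain of ubiquitin units, had 126.3 in SoNar-high and 107.2 in SoNar-low cells, a difference of 0.24 ± 0.20, and Rps27a, which encodes ubiquitin fused to a ribosomal protein, had 0.13 ± 0.20. The activating enzymes Uba1 and Uba6 had -0.24 and -0.45. Of 7 regulators of proteasome genes 6 were measured and 1 was at least 2-fold lower, beside 4.44% of all measured genes. Nfe2l2 had 4.15 in SoNar-high and 3.44 in SoNar-low cells and a difference of 0.27 ± 0.21. Of the NF-Y subunits, Nfya had -1.03 ± 0.23 from a dim probe and Nfyc, the brightest of the list, 0.08 ± 0.20. Nfe2l1 was not above background on either array.

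The median of the proteasome genes depended on how the arrays were scaled. Most of these genes had bright probes: 41 of 49 lay above the median signal of all measured genes and 31 in the top quartile of signal. All measured genes of that quartile had a median difference of -0.18, beside -0.36 for the 31 proteasome genes in it, and all genes of the dimmest quartile had 0.12. After a loess fit of the difference on signal, the median of the proteasome genes was -0.10 and that of all genes 0.02, and 30 of 49 lay below 0, beside 48.5% of all genes. In the authors' deposited value table the medians were -0.12 for the proteasome genes and -0.03 for all genes. There 33 of 49 lay below 0, beside 52.7% of all genes. After quantile normalization 32 of 49 did, beside 53.1% of all genes. Below the median of all genes lay 28 of 49 in both, and 35 under the main setting. The part of signal strength in the lower proteasome values was not tested further.

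Psmg4 and Psma7 passed 2-fold under each setting. Psmg4 was between -1.67 and -1.48, and Psma7 between -1.36 and -1.07, under the main setting and all 9 alternatives that change values. Psma6 kept 2-fold in 4 of 9 alternatives and Psmb7 in 5 of 8. Over all settings 29 genes stayed below 0, 7 above 0 (Psmb3, Psmd7, Psmd9, Psmd10, Psmd11, Psme4 and Psmf1), and 13 changed sign. The median of the core assembly factors stayed between -0.92 and -0.72.

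**Figure D3:**
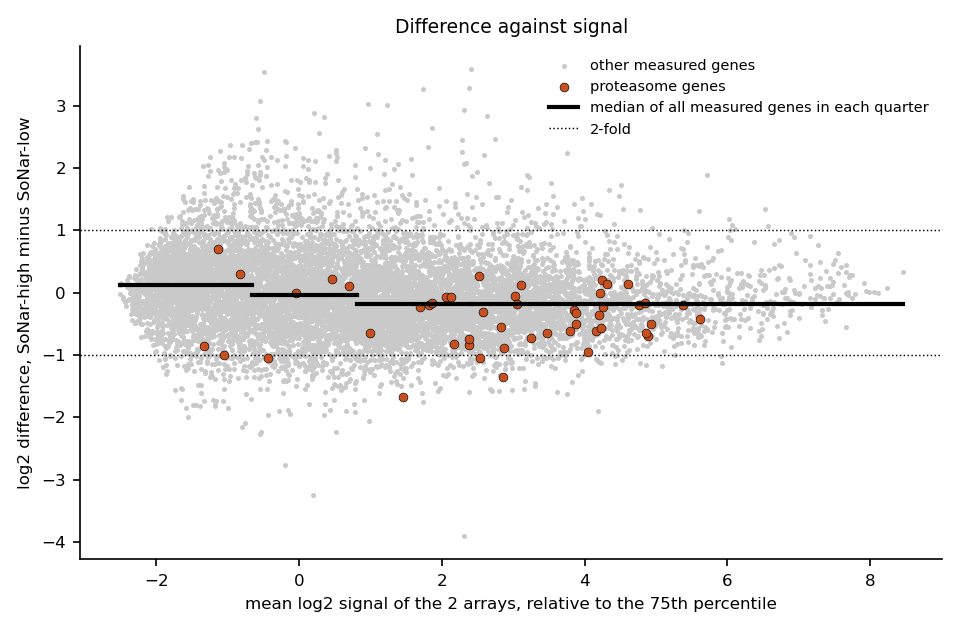
Log2 difference (SoNar-high minus SoNar-low) against mean log2 signal of both arrays relative to the 75th percentile, for the 49 proteasome genes (large points) and the other measured genes (small points). Black lines give the median of all measured genes in each quartile of signal, from 0.12 in the dimmest to -0.18 in the brightest, where 31 of the 49 genes lie.

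A further probe was available for few genes. Where several probes were measured, in 11 genes, they had the same sign in 9 and opposite signs in 2 (Psmc1 and Psmc3). The range between probes of a gene had a median of 0.30 and reached 0.80 in Psma4. The other 38 genes rested on 1 probe each, among them Psmg4, Psma7, Psma6 and Psmb7.

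The sorted populations differed in more than the proteasome genes. All 15 erythroid markers were measured and above 0, with 10 at least 2-fold higher, a median of 1.24 and summed scaled signals of 494.0 in SoNar-high and 283.5 in SoNar-low cells. Most of these sums came from Hba-a1 (195.3 in SoNar-high and 104.1 in SoNar-low cells) and Hbb-bt (166.8 in SoNar-high and 122.1 in SoNar-low cells). Stem and progenitor markers had a median of -0.83 over 12 genes, with sums of 77.5 in SoNar-high and 121.7 in SoNar-low cells, and 11 of them were below 0, 3 by at least 2-fold. The exception was Ly6a, at least 2-fold higher, with 0.770 in SoNar-high and 0.277 in SoNar-low cells and a difference of 1.48 ± 0.30. Neutrophil markers had a median of 0.59 (12 of 12 measured, sums of 1197 in SoNar-high and 801.6 in SoNar-low cells), with 4 at least 2-fold higher. Within that list Ngp was below 0, at -0.19 ± 0.20, and Ctsg, Prtn3 and Mpo lay between 0.0009 and 0.11. Hepatic markers (9 of 12 measured, sums of 142.5 in SoNar-high and 61.0 in SoNar-low cells) and endothelial markers (7 of 9, sums of 35.4 in SoNar-high and 22.3 in SoNar-low cells) were above background in cells labelled as blood, with medians of 1.86 and 1.98. At least 2-fold higher were 7 of the 9 hepatic and 5 of the 7 endothelial markers. The other 2 endothelial markers were Egfl7, at -0.31 ± 0.20, and Pecam1, level at 0.01 ± 0.22. Egfl7 had 14.0 in SoNar-high and 17.3 in SoNar-low cells, the largest signal of its list on both arrays. Of the hepatic and endothelial lists, Fga, Ttr and Tek were above background in SoNar-high cells alone, and Apoa1 and Emcn on neither array. The part of these cell types in the lower proteasome values was not tested.

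**Figure D4:**
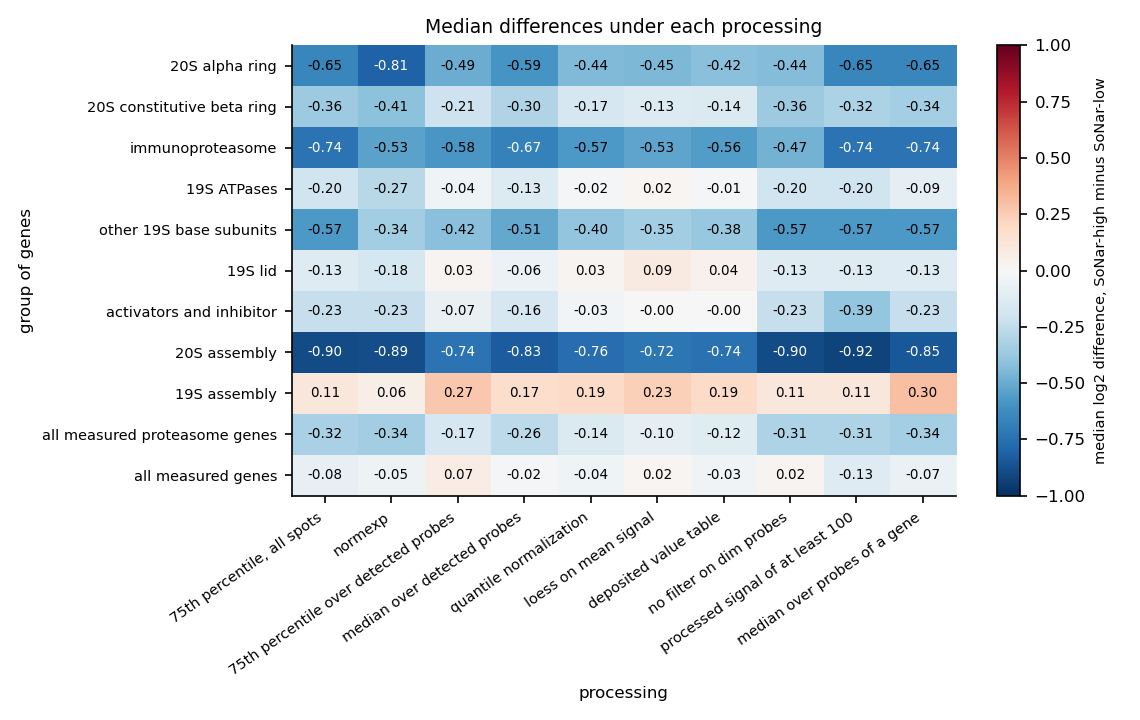
Median log2 difference (SoNar-high minus SoNar-low) of each role, of all measured proteasome genes and of all measured genes (rows) under the main setting and 9 alternatives (columns), printed in each cell. The 20S assembly row stays between -0.92 and -0.72, while the row of 19S ATPases runs from -0.27 to 0.02.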

How the data were processed

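Total RNA of 2 sorted populations was measured on single-colour (Cy3) arrays. The authors deposited spot intensities (processed, median and background signals, and the error of the processed signal) from Agilent Feature Extraction, which had subtracted background, per the file headers. The headers name version 11.0.1.1 and the submitters' processing notes 9.1. The authors' deposited value table holds log2 values of unstated normalization with the same median (4.80) in both columns; over measured probes, its differences and the scanner differences had a correlation of 0.966, of the same sign.

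Control and outlier-marked spots (225 for SoNar-high and 135 for SoNar-low cells) were left out. Each array's 75th percentile of log2 processed signal over all 43020 non-control spots, outlier-marked ones included, was subtracted, and spots of a probe were averaged, giving 39429 probes, of which 27234 were named through RefSeq accessions (GRCm38.p6, used for names, gene order and promoter sequences). A probe counted as measured where, on both arrays, the majority of its spots passed the scanner's flag for signal over background and none was saturated, and the brightest measured probe stands for a gene. The scanner error of a difference combines the deposited errors of both signals. Spots of 213 probes printed 10 times gave a median SD of 0.16 for a difference. The number of arrays limits the precision.

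Every member could be named; signals were printed by a fixed rule (in each role the 3 with the largest absolute difference, the brightest, those past 2-fold and those whose probes differ in sign; from each gene list, the most different and the brightest), and signals of further members were added after their values were seen. Members, lists and settings were chosen with earlier results of these data known. Of 143 list names 1 had no match. Values of some list genes are not reported here. Python 3.11.15, R 4.3.3 and limma 3.58.1 were used, and the counting was tested on simulated data.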

Additional observations from a re-analysis of the deposited data

How the results depend on the processing

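No paired analysis was possible because each group has 1 array. With 1 array per group, replicates could not be left out. The median of all measured genes moved by 0.15 with the 75th percentile of detected probes only, by 0.10 after loess and by 0.11 with dim probes kept; the 540 genes higher and 454 lower became 782 and 247 under the first of these, and 2476 and 659 with dim probes kept. The number of proteasome genes at least 2-fold lower, 4, became 2 with scaling on the 75th percentile or on the median of detected probes and 1 at a 3-fold threshold. It was 3 to 5 under the other settings. The 3 came with a minimum signal of 100, which removed Psmb7. No proteasome gene was 2-fold higher under any setting.

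The median of the proteasome genes, -0.32, was -0.12 in the deposited value table, -0.10 after loess and -0.14 after quantile normalization. In the same order, the alpha ring had -0.42, -0.45 and -0.44, the constitutive beta ring -0.14, -0.13 and -0.17, the immunoproteasome subunits -0.56, -0.53 and -0.57, the ATPases -0.0121, 0.0198 (a change of sign) and -0.0202, the other base subunits -0.38, -0.35 and -0.40, and the activators and inhibitor -0.0022, -0.0013 and -0.0302. The lid had 0.0405 in the value table and 0.0881 after loess, and the core assembly factors -0.72 after loess. Normexp gave -0.81 for the alpha ring, -0.53 for the immunoproteasome subunits and -0.34 for the other base subunits. With dim probes kept, and so with Psma8 and Psmb11, the alpha ring had -0.44 and the immunoproteasome group -0.47. A minimum signal of 100, which removed Psmf1, gave -0.39 for the activators, and the median over probes gave 0.30 for the cap assembly factors. The other medians moved by no more than 0.16, the spread between spots.

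Of the 13 genes that changed sign, 11 turned positive and 2 negative. Those that turned positive were Psma2 (0.0320 in the value table, 0.0091 after loess, 0.0153 after quantile normalization), Psma3 (0.0352 in the value table, 0.0142 after quantile normalization), Psmb6 (0.0634, 0.0347 and 0.0443 in the order of Psma2), Psmb9 (0.0019 after loess), Psmd13 (0.0364 after loess) and Psme3ip1 (0.0407 after loess, 0.0059 after quantile normalization), and 5 genes that lay near 0 from the start: Psmd2 (highest value 0.22, positive in 5 of 9 alternatives), Psmc4 (0.16, in 5), Psmc5 (0.14, in 4), Psmd8 (0.14, in 4) and Psmg3 (0.15, in 3). Psmc1 (-0.0583) and Psmd3 (-0.1382) turned negative with normexp. Where values moved under a scaling, the cause was not tested. Signals near background limit Psmb7, Psmg2, Psmc3ip, Psmf1 and Psmd9.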
